A study of Mus musculus with 12 samples.

Results

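Potassium channel genes were described in the hippocampus of mice with recurrent seizures, after an injection of lipopolysaccharide (LPS, the endotoxin of Gram-negative bacteria) or of saline. The members are the genes whose name in the array files starts with Kcn and a further lower-case letter, apart from Kcnj8, Kcnj10 and Kcnj13, which mark pericytes, astrocytes and choroid plexus. The arrays carry 85 such genes. Of these, 76 passed the filter, which asked that 1 group or more have all 3 arrays well above background, and they stand among 18177 genes tested in all. The 9 others, among them Kcng3, Kcnh7, Kcnj1, Kcnj5, Kcnk5, Kcnk16, Kcnmb3 and Kcnv2, were too dim and were not tested.

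Per the labels, the mice were C57BL/6N males aged 12 weeks, and no altered allele is named. All of them, the saline groups included, had been injected in the left dorsal hippocampus 3 weeks before with kainate (50 nl at 20 mM), which excites neurons through glutamate receptors, so that no group without seizures was compared. They were given 1 intraperitoneal dose of LPS from Salmonella enterica (serotype abortus equi, 100 µg/kg) or saline, and hippocampi were taken 4 h or 24 h later. There are thus 4 groups of 3 one-colour Agilent arrays, named here by injection and time (saline 4 h and so on). The labels count 3 per group without stating which side was dissected, so p-values measure the spread between these samples, which may be partly technical.

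Potassium channels let potassium leave a cell down its gradient and so set the resting potential, end the action potential and limit repetitive firing. Voltage-gated (Kv) channels open on depolarisation, inward rectifiers hold the membrane near rest, 2-pore channels carry leak, and calcium- or sodium-activated channels answer to ions that enter during firing. Auxiliary subunits change the gating or the place of the pore-forming ones. In the hippocampus, loss of the M-current, which Kv7 channels carry, or of Kv1 channels is a known cause of seizures, and microglia and T cells use a small set of their own, such as Kcna3, Kcnn4 and Kcnk13.

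Values are log2 of the processed intensity relative to the 75th percentile of the array, so a value of 0 is a signal at that percentile, and differences are in log2 units given ± their standard error (SE) in the fit. A call, higher or lower, needed an adjusted p under 0.05 from limma, with the Benjamini-Hochberg adjustment over all 18177 genes. Levels of different genes come from different probes and were not compared. In bulk tissue, fewer cells of a type and less RNA per cell cannot be told apart.

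The arrays differed by group before any gene was looked at. At 4 h the 75th percentile of intensity was 365 ± 12.3 (SD, n = 3) after saline and 663 ± 33.6 after LPS. At 24 h these were 769 ± 60.7 and 820 ± 117. Between 53.9% and 55.0% of probes were well above background in saline 4 h, against 58.2% to 70.9% on the 9 other arrays. The arrays of 4 h were scanned on 1 day and those of 24 h on another, so time and scan day cannot be told apart. Markers of granule and pyramidal cells, all of them detected in every group, moved with the groups. At 4 h their summed level (linear, relative to the 75th percentile) was 31.6 to 32.0 after saline and 49.4 to 50.4 after LPS, and at 24 h it was 70.1 to 71.4 and 55.9 to 57.7. Of these 8 markers, 7 were called higher and 0 lower at 4 h, and 0 higher and 6 lower at 24 h. Markers of neighbouring brain regions had a summed level of 13.6 to 14.4 after saline and 9.9 to 10.2 after LPS at 4 h. At 24 h it was 5.48 to 5.53 and 6.92 to 6.99. Of these 9 markers, 4 were higher and 2 lower at 4 h, and 4 higher and 2 lower at 24 h. Cux2 and Six3 among them had no saline 4 h array well above background. The part of these shifts in the values below was not tested.

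The first comparison asks how channel transcripts differed 4 h after LPS. Among called members, by the probes used, Kcnk2 and Kcnh2 were among the largest rises, and Kcnf1, Kcnj4 and Kcnk13 had the largest falls. By its other probe Kcnj4 rose, as given below. Of the 76 members, 30 were called higher and 21 lower. Over all genes tested, 29.3% were called higher and 44.5% lower (73.8% in all), against 39.5% and 27.6% (67.1% in all) of the members. At 24 h the shares of all genes were 23.3% and 22.8%. The median difference was 0.04 for the members and -0.15 for all genes. Scaled on the median of each array instead, where all genes had a median of -0.32, the members split into 21 higher and 30 lower. Over all genes, 21.5% were then higher and 54.2% lower. All 3 LPS arrays lay above all 3 saline arrays in 31 members and below them in 23, where 30.6% and 46.7% of all genes did so.

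**Figure D1:**
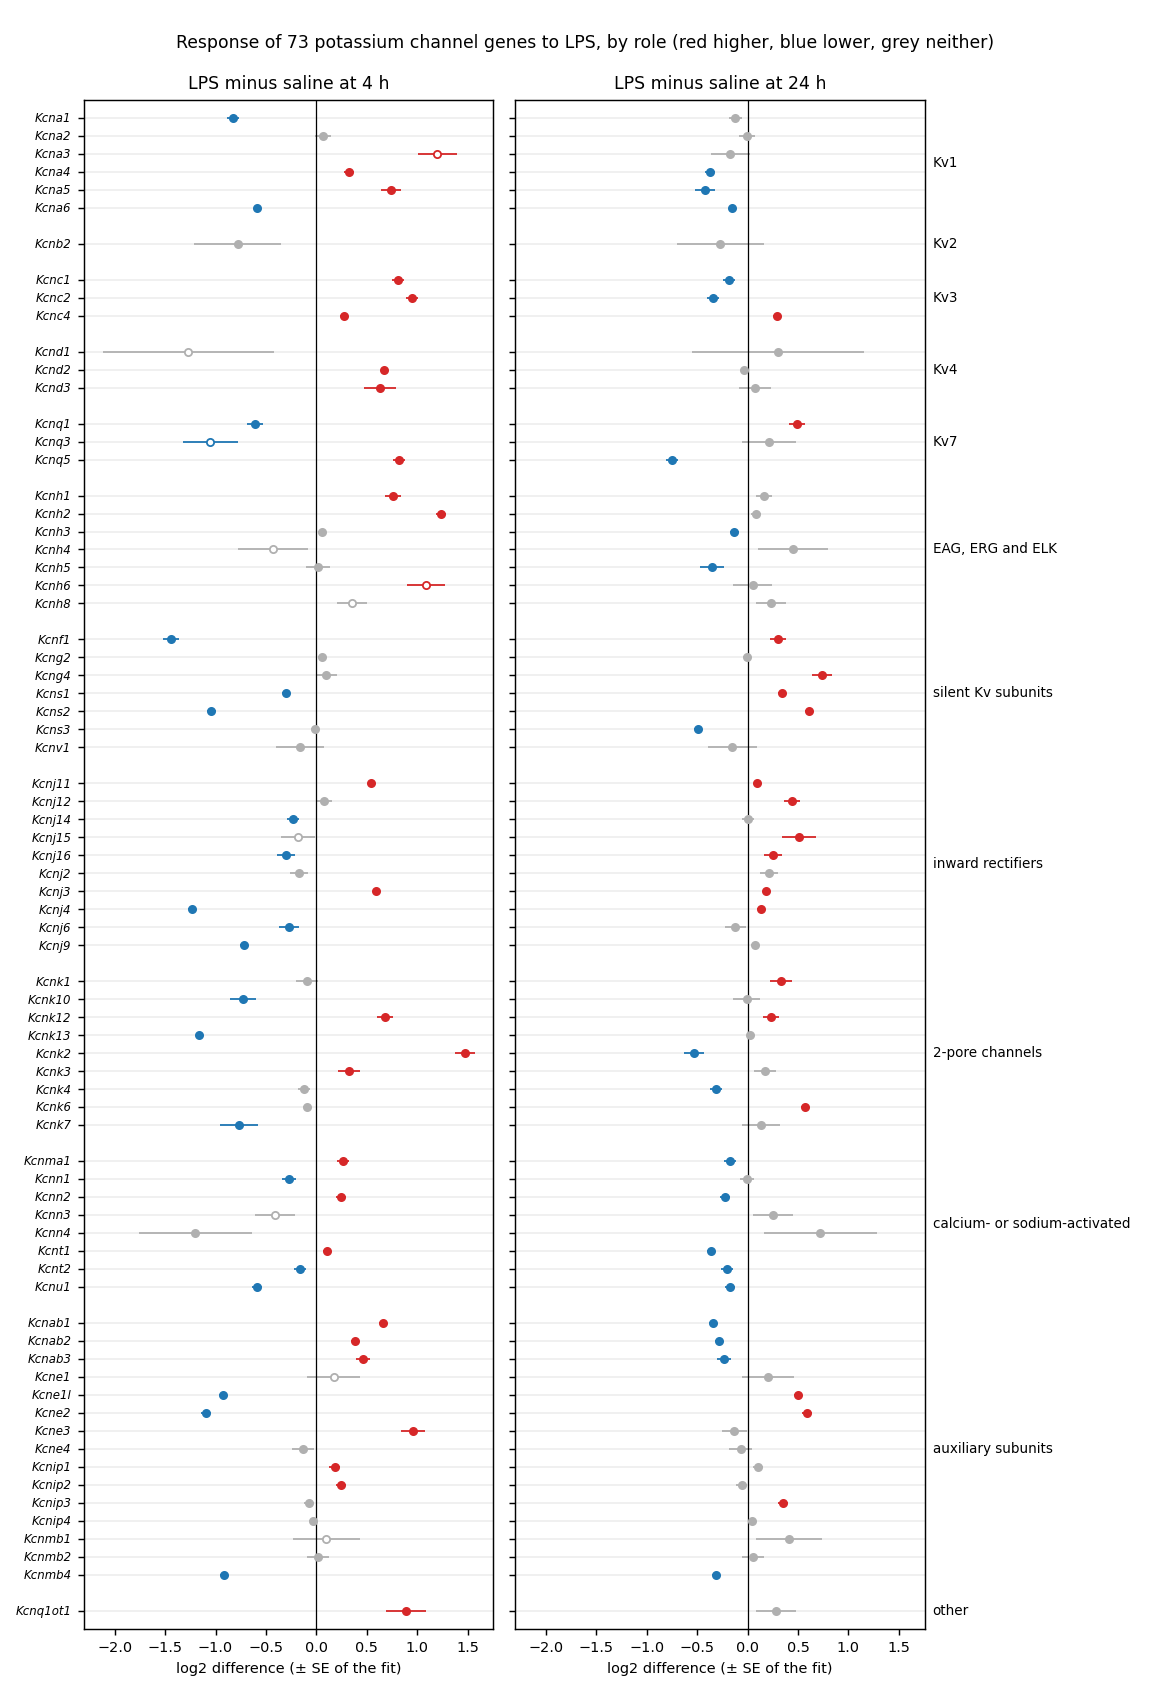
Log2 difference between LPS and saline (x axis, ± SE of the fit, n = 3 per group) for 73 potassium channel genes (rows), grouped by role, at 4 h (left) and at 24 h (right). Red is called higher, blue lower and grey neither; open circles mark a gene for which 1 or both groups had no array well above background, so that its fitted value is no measured fold. Differences ran from -1.44 to 1.47 at 4 h and from -0.75 to 0.74 at 24 h.

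Among Kv7 channels, Kcnq3 and Kcnq5 encode subunits of the M-current, which brakes repetitive firing. Kcnq5 (mm9, chromosome 1, 21392224 to 21392283) was measured on all arrays and went both ways. In saline 4 h it read -2.24, -2.03 and -2.04, and in LPS 4 h -1.33, -1.25 and -1.27, a rise of 0.82 ± 0.06 (adjusted p = 5.34e-07). In saline 24 h it read -0.26, -0.38 and -0.38, and in LPS 24 h -1.07, -1.11 and -1.08, so that it fell by 0.75 ± 0.06 (adjusted p = 5.37e-06). The arrays did not overlap at either time, and Kcnq5 had the largest fall of any member at 24 h. Kcnq3 was called lower at 4 h (adjusted p = 0.00532), but it was well above background on 0 of 3 saline and 1 of 3 LPS arrays there, so no fold is given. Its 24 h arrays overlapped, at -5.41, -5.02 and -5.62 in saline and -5.18, -5.37 and -4.86 in LPS. Kcnq1, the cardiac and epithelial Kv7 subunit, fell by 0.61 ± 0.08 at 4 h and rose by 0.49 ± 0.08 at 24 h (adjusted p = 5.39e-05 and 0.000737). Its arrays stood apart at both times.

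**Figure D2:**
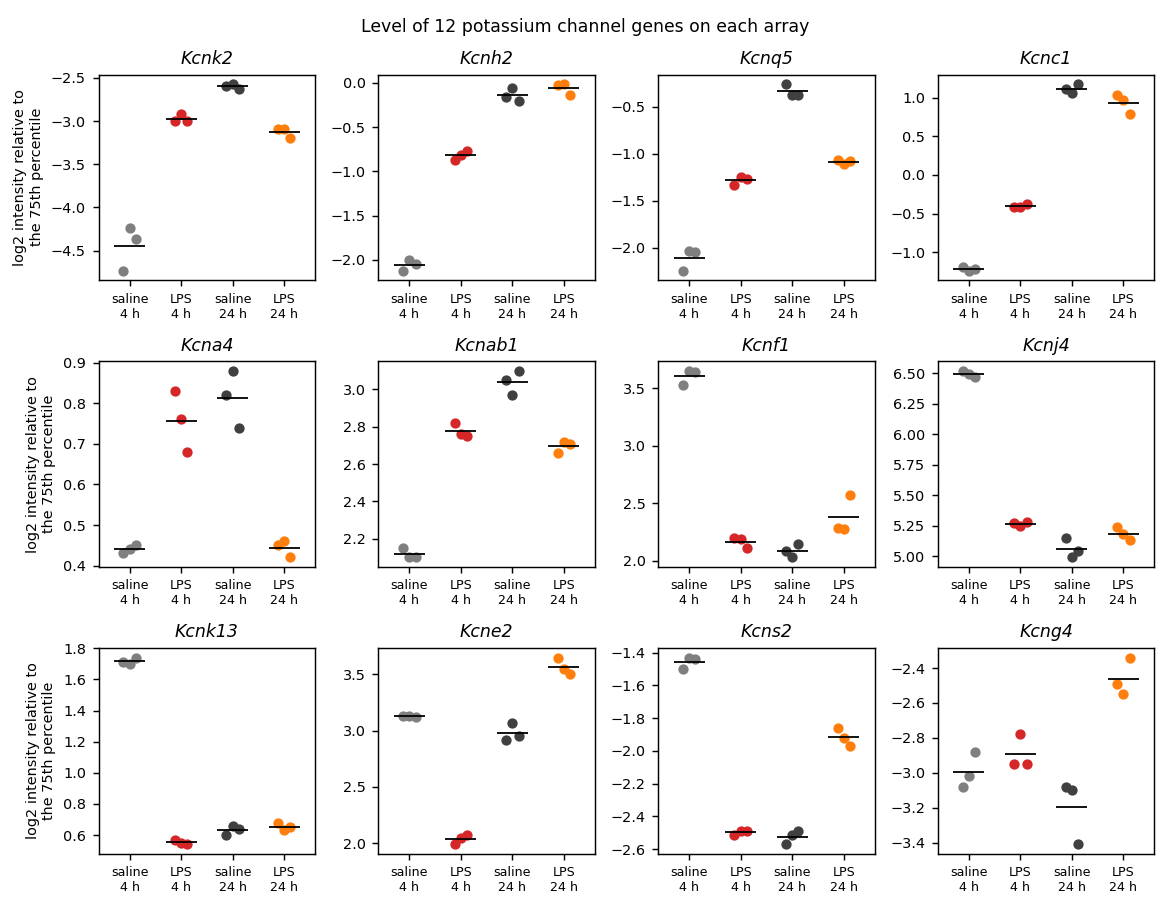
Level of 12 potassium channel genes on each of the 12 arrays (log2 intensity relative to the 75th percentile of the array, y axis; a separate scale per gene) by group (x axis). Points are arrays and lines are means of 3. In Kcnk13 the 3 saline 4 h arrays stand above the 9 others, at 1.70 to 1.74 against 0.54 to 0.68, and in Kcnab1 they stand below them.

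Among Kv1 channels, which sit on axons and near the initial segment, 3 of 6 members rose and 2 fell at 4 h, and 0 rose and 3 fell at 24 h. Kcna1, whose mutation causes episodic ataxia with seizures, read 6.29, 6.35 and 6.33 in saline 4 h and 5.53, 5.55 and 5.39 in LPS 4 h. This fall of 0.83 ± 0.06 (adjusted p = 8.02e-07) had no counterpart beyond the spread at 24 h, where saline read 5.39, 5.40 and 5.45 and LPS 5.33, 5.40 and 5.17 (adjusted p = 0.158). Kcna2, its partner in axonal channels, had overlapping arrays at both times (-4.10, -3.93 and -3.73 against -3.81, -3.84 and -3.92 at 4 h, and -3.02, -3.10 and -2.97 against -3.01, -2.99 and -3.11 at 24 h).

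Kcna4, an A-type subunit of axons, rose by 0.32 ± 0.05 at 4 h and fell by 0.37 ± 0.05 at 24 h. Its 24 h arrays read 0.82, 0.88 and 0.74 in saline and 0.45, 0.46 and 0.42 in LPS. Kcna5 did the same with larger differences, 0.74 ± 0.10 and a fall of 0.42 ± 0.10 (adjusted p = 6.43e-05 and 0.00629). Its 24 h arrays read -3.61, -3.47 and -3.54 in saline and -3.98, -4.02 and -3.87 in LPS, without overlap. Kcna6 fell at both times, by 0.59 ± 0.03 and 0.15 ± 0.03. Kcna3, the channel of activated T cells and microglia, was called higher at 4 h (adjusted p = 0.000206). None of its saline 4 h arrays was well above background, and no fold is given.

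Kv3 channels let interneurons fire fast, and by the probes used Kcnc1, Kcnc2 and Kcnc4 rose at 4 h. The other Kcnc1 probes split at 4 h, with a rise of 0.37 ± 0.04 and a fall of 0.34 ± 0.05 (adjusted p = 3.1e-05 and 7.7e-05). Kcnc2 read 0.62, 0.65 and 0.66 in saline 4 h and 1.61, 1.64 and 1.53 in LPS 4 h, a difference of 0.95 ± 0.06 (adjusted p = 1.47e-07). Kcnc1 read -1.19, -1.24 and -1.22 against -0.42, -0.42 and -0.38, a difference of 0.81 ± 0.06 (adjusted p = 5.97e-07). At 24 h both were lower after LPS, with falls of 0.34 ± 0.06 for Kcnc2 and 0.18 ± 0.06 for Kcnc1 (adjusted p = 0.000775 and 0.0258). For Kcnc1 the 24 h arrays were 1.11, 1.06 and 1.18 in saline and 1.03, 0.97 and 0.79 in LPS. With the slide as a block, the 24 h fall of Kcnc1 had an adjusted p of 0.074. Markers of interneurons had a summed level of 13.9 to 14.6 after saline and 17.3 to 18.3 after LPS at 4 h, and of 31.8 to 32.4 and 27.5 to 29.0 at 24 h, with 3 of 5 higher and 1 lower at 4 h and 0 higher and 2 lower at 24 h. Their part in the Kv3 values was not tested. Kcnc4 rose at both times, by 0.27 ± 0.04 and 0.29 ± 0.04 (adjusted p = 0.000196 and 0.000347).

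Kcnb2, a Kv2 channel, passed the test at neither time. In it 1 saline 4 h array read -5.21 beside -3.04 and -3.56, and without that array the value was -1.42 (adjusted p = 1.3e-05).

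Of the Kv4 channels, which carry the dendritic A-type current, Kcnd2 read 2.99, 2.88 and 2.94 in saline 4 h and 3.62, 3.57 and 3.61 in LPS 4 h. It rose by 0.67 ± 0.03 (adjusted p = 6.49e-08) and did not pass at 24 h, at 3.57, 3.53 and 3.49 against 3.50, 3.50 and 3.46. Kcnd3 rose by 0.63 ± 0.16 at 4 h (adjusted p = 0.00443), with 2 of 3 saline arrays well above background. Kcnd1 was near background throughout 4 h, with 1 saline array at -2.86 and the other two at -7.04 and -5.92. The A-type list holds Kcnd2, Kcnd3, Kcna4 and the 4 Kcnip subunits. By the probes used, 5 of 7 rose and 0 fell at 4 h, with a median of 0.24. At 24 h 1 rose and 1 fell, with a median of 0.04. These counts depend on the probe. At 4 h the other probe of Kcnip3 fell by 0.67 ± 0.04 (adjusted p = 1.67e-07) and that of Kcnd2 by 0.23 ± 0.06 (adjusted p = 0.00688). The other Kcnip4 probe did not pass at 4 h (adjusted p = 0.185) and fell by 0.3 ± 0.05 at 24 h (adjusted p = 0.000723). All of these probes were well above background on all arrays.

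Among the EAG, ERG and ELK channels (Kcnh), by the probes used, 3 of 7 members rose and 0 fell at 4 h, against 0 and 2 at 24 h. The 2 became 0 without saline 24 h replicate 2 or LPS 24 h replicate 2. Kcnh2, the ERG channel known for its part in repolarisation, read -2.12, -2.00 and -2.04 in saline 4 h and -0.87, -0.81 and -0.77 in LPS 4 h. The rise was 1.24 ± 0.05 (adjusted p = 1.53e-08). At 24 h its arrays overlapped and the difference was 0.08 ± 0.05 (adjusted p = 0.243). Kcnh6, a second ERG channel, read -5.79, -5.31 and -5.23 in saline, with no array well above background, and -4.04, -4.51 and -4.50 in LPS. With the processing used here it rose at least 1.3-fold (adjusted p = 0.000507). With normexp background correction this rise was lost and the value changed sign, as given at the end. Kcnh1 rose by 0.76 ± 0.08 (adjusted p = 1.15e-05). At 24 h Kcnh5, an EAG channel, fell by 0.35 ± 0.12 (adjusted p = 0.0453), from -3.62, -3.60 and -3.63 in saline to -3.90, -4.02 and -3.97 in LPS. By the probe used, Kcnh3 fell by 0.13 ± 0.04 at 24 h (adjusted p = 0.023) and did not pass at 4 h. By its other probe, well above background on all arrays, Kcnh3 fell by 0.8 ± 0.07 at 4 h (adjusted p = 2.14e-06). That probe did not pass at 24 h (adjusted p = 0.113).

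The silent subunits (Kcnf, Kcng, Kcns, Kcnv) form no channel alone but change Kv2 channels when they join them. At 4 h 0 of 7 members rose and 3 fell, and at 24 h 4 rose and 1 fell. Kcnf1 had the largest fall of any member at 4 h, from 3.53, 3.65 and 3.64 to 2.20, 2.19 and 2.11, by 1.44 ± 0.08 (adjusted p = 6.91e-08). At 24 h it was higher by 0.30 ± 0.08 (adjusted p = 0.01). Kcns2 went from -1.50, -1.43 and -1.44 to -2.51, -2.49 and -2.49 at 4 h, a fall of 1.04 ± 0.04 (adjusted p = 4.8e-09).

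At 24 h Kcns2 read -2.57, -2.51 and -2.49 in saline and -1.86, -1.92 and -1.97 in LPS, a rise of 0.61 ± 0.04 (adjusted p = 8.99e-07). Kcns1 followed the same order, with a fall of 0.30 ± 0.04 and a rise of 0.34 ± 0.04. Kcng4 had the largest rise of any member at 24 h, from -3.08, -3.10 and -3.41 to -2.49, -2.55 and -2.34, by 0.74 ± 0.10 (adjusted p = 0.000213), while its 4 h arrays overlapped. Kcns3, which is found in fast-spiking interneurons, fell at 24 h from -0.81, -0.78 and -0.72 to -1.26, -1.21 and -1.30, by 0.49 ± 0.04 (adjusted p = 1.07e-05). It differed by -0.01 ± 0.04 at 4 h, within the spread.

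Inward rectifiers (Kcnj) had 2 of 10 members higher and 5 lower at 4 h, and 6 higher and 0 lower at 24 h. The 6 became 2 without saline 24 h replicate 2, 3 with the slide as a block and 0 with normexp background correction. By the probe used, Kcnj4, a strong rectifier of forebrain neurons, read 6.52, 6.49 and 6.47 in saline 4 h and 5.27, 5.25 and 5.28 in LPS 4 h, a fall of 1.23 ± 0.04 (adjusted p = 5.05e-09). By its other probe, well above background on all arrays, Kcnj4 rose by 0.36 ± 0.08 at 4 h (adjusted p = 0.00232). By the probes used, the G protein-gated subunits split. Kcnj3 rose by 0.59 ± 0.03 at 4 h (0.82, 0.86 and 0.81 against 1.42, 1.43 and 1.40, adjusted p = 2.22e-08) and by 0.18 ± 0.03 at 24 h (1.45, 1.41 and 1.43 against 1.64, 1.60 and 1.59, adjusted p = 0.00043). Kcnj9 fell by 0.72 ± 0.04 at 4 h (adjusted p = 9.89e-08).

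Kcnj6, the third of them, had overlapping arrays at both times: -4.18, -3.93 and -3.76 against -4.30, -4.12 and -4.26 at 4 h, and -3.50, -3.57 and -3.57 against -3.55, -3.69 and -3.75 at 24 h. It was nevertheless called lower at 4 h, by 0.27 ± 0.10 (adjusted p = 0.032). Kcnj11, the pore of the ATP-sensitive channel, rose by 0.54 ± 0.03 at 4 h and by 0.09 ± 0.03 at 24 h, the latter at -0.01 under median scaling. At 24 h Kcnj12 rose from -1.66, -1.65 and -1.65 to -1.20, -1.19 and -1.26, by 0.44 ± 0.08 (adjusted p = 0.00106). Kcnj15 rose from -5.75, -6.08 and -6.50 to -5.61, -5.68 and -5.52, by 0.51 ± 0.17 (adjusted p = 0.0325). Both kept their arrays apart, but Kcnj15 had 2 of 3 saline arrays well above background. Kcnj10, the glial rectifier outside the rule, fell by 0.71 ± 0.07 at 4 h. Of the 5 other astrocyte markers 2 were higher and 3 lower. Kcnj8, the pericyte one, fell by 0.21 ± 0.03 at 4 h and rose by 0.28 ± 0.03 at 24 h.

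Of the 2-pore leak channels, 3 of 9 rose and 3 fell at 4 h, and 3 rose and 2 fell at 24 h, where the 3 became 1 without saline 24 h replicate 1 or replicate 3. Kcnk2 (TREK-1, opened by stretch and lipids) read -4.73, -4.24 and -4.36 in saline 4 h and -3.00, -2.92 and -3.00 in LPS 4 h, a rise of 1.47 ± 0.10 (adjusted p = 5.49e-07) with 2 of 3 saline arrays well above background. It fell at 24 h, by 0.53 ± 0.10 (adjusted p = 0.00238), from -2.60, -2.57 and -2.63 to -3.09, -3.09 and -3.20. Kcnk13, the leak channel of microglia, fell from 1.71, 1.70 and 1.74 to 0.57, 0.55 and 0.54, by 1.16 ± 0.03 (adjusted p = 4.21e-10). At 24 h its arrays overlapped between 0.60 and 0.68.

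Kcnk6, another leak channel of microglia and macrophages, did not pass at 4 h and rose at 24 h from -0.08, -0.22 and -0.11 to 0.41, 0.44 and 0.44, by 0.57 ± 0.04 (adjusted p = 5.2e-06). Kcnk12 rose at both times, by 0.68 ± 0.08 and 0.23 ± 0.08, and Kcnk10 fell by 0.73 ± 0.13 at 4 h, with 2 of 3 arrays well above background in each group. Kcnk1, an astrocyte and neuron channel, read 2.41, 2.31 and 2.34 in saline 4 h and 2.26, 2.27 and 2.27 in LPS 4 h (adjusted p = 0.492). The 24 h arrays read 1.91, 1.92 and 1.99 in saline and 2.11, 2.11 and 2.58 in LPS, a rise of 0.33 ± 0.11 (adjusted p = 0.0309) in which 1 LPS array, at 2.58, stood above the others. Kcnk4 fell by 0.31 ± 0.06 at 24 h.

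For the list of channels that microglia and other immune cells use (Kcna3, Kcnn4, Kcnk6, Kcnk13, Kcnj2), 1 of 5 was called higher and 1 lower at 4 h, and 1 higher and 0 lower at 24 h. Microglial markers themselves had a summed level of 66.7 to 68.5 after saline and 43.8 to 45.9 after LPS at 4 h, and of 23.8 to 24.4 and 38.1 to 40.5 at 24 h, with 1 of 5 higher and 3 lower at 4 h and 4 higher and 1 lower at 24 h. Their part in Kcnk13 and Kcnk6 was not tested. Kcnn4 had 1 saline 4 h array at -0.60 beside -3.12 and -3.13, against -3.56, -3.32 and -3.57 in LPS. It did not pass at either time (adjusted p = 0.0789 and 0.332). Without that array, whose spread enters the fit, the 24 h value of 0.72 had an adjusted p of 0.00267, and without either of the other saline 4 h arrays the 4 h value was -1.62 (adjusted p = 0.0316).

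The group of calcium- and sodium-activated channels, set by gene name, had 3 of 8 members higher and 3 lower at 4 h, and 0 higher and 5 lower at 24 h. Kcnu1, lower at both times, is counted in it by its name, and no activation by either ion is implied for it. The 5 became 3 without any 1 of the saline 24 h arrays or without LPS 24 h replicate 2 or 3. Kcnma1, the BK channel that shortens spikes, read -1.91, -1.99 and -1.99 in saline 4 h and -1.67, -1.74 and -1.69 in LPS 4 h, and rose by 0.26 ± 0.06 (adjusted p = 0.00235). It fell at 24 h, by 0.17 ± 0.06 (adjusted p = 0.0356), with overlapping arrays of -0.46, -0.46 and -0.50 in saline and -0.74, -0.71 and -0.49 in LPS. Kcnn2, an SK channel of the afterhyperpolarisation, read 3.24, 3.17 and 3.18 against 3.43, 3.46 and 3.40 at 4 h and 2.78, 2.86 and 2.78 against 2.67, 2.62 and 2.46 at 24 h. It rose by 0.24 ± 0.05 and then fell by 0.22 ± 0.05 (adjusted p = 0.00218 and 0.0066).

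Kcnt1, a sodium-activated channel mutated in severe infant epilepsies, was barely higher at 4 h (0.11 ± 0.04, adjusted p = 0.0389, and -0.059 under median scaling). At 24 h it fell by 0.36 ± 0.04 (adjusted p = 9.29e-05), from 2.49, 2.63 and 2.59 to 2.25, 2.24 and 2.15. Another Kcnt1 probe, well above background on all 12 arrays, rose by 0.94 ± 0.08 at 4 h (adjusted p = 1.67e-06) and was at -0.18 ± 0.08 at 24 h (adjusted p = 0.0814). With the mean of its 3 probes Kcnt1 was at 0.33 (adjusted p = 0.0688) and -0.089 (adjusted p = 0.671). Kcnt2 and Kcnu1 were lower at both times, Kcnu1 by 0.59 ± 0.05 and 0.17 ± 0.05.

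Auxiliary subunits had 6 of 15 members higher and 3 lower at 4 h, and 3 higher and 4 lower at 24 h. The cytoplasmic beta subunits of Kv1 channels moved alike: Kcnab1, Kcnab2 and Kcnab3 rose by 0.66 ± 0.04, 0.38 ± 0.04 and 0.46 ± 0.07 at 4 h and fell by 0.34 ± 0.04, 0.28 ± 0.04 and 0.23 ± 0.07 at 24 h. For Kcnab1 the 24 h arrays read 3.05, 2.97 and 3.1 in saline and 2.66, 2.72 and 2.71 in LPS (adjusted p = 7.07e-05). Kcne2, a small membrane subunit abundant in choroid plexus, went the other way. At 4 h it read 3.13, 3.13 and 3.12 after saline and 1.99, 2.05 and 2.07 after LPS, and at 24 h 2.92, 3.07 and 2.95 and then 3.65, 3.55 and 3.50, for a fall of 1.09 ± 0.05 and a rise of 0.59 ± 0.05 (adjusted p = 2.61e-08 and 9.61e-06).

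Markers of choroid plexus and ependyma had a summed level of 20.9 to 22.1 after saline and 15.9 to 16.7 after LPS at 4 h, and of 15.6 to 16.7 and 20.5 to 22.1 at 24 h, with 1 of 4 higher and 3 lower at 4 h and 3 higher and 0 lower at 24 h. Their part in Kcne2 was not tested. Kcne1l fell from 4.29, 4.26 and 4.15 to 3.28, 3.29 and 3.33 at 4 h, by 0.93 ± 0.04 (adjusted p = 3.32e-08), and rose from 1.90, 2.01 and 1.89 to 2.41, 2.42 and 2.46 at 24 h, by 0.50 ± 0.04 (adjusted p = 1.21e-05). Kcne3 rose at 4 h by 0.96 ± 0.12 (adjusted p = 4.19e-05), from -4.49, -4.89 and -5.02 to -3.90, -3.88 and -3.73. Its saline level was well above background on 1 of 3 arrays, and with normexp the value was 0.068 (adjusted p = 0.748). Kcnmb4, the neuronal beta subunit of BK channels, fell at both times. It went from 5.77, 5.72 and 5.74 to 4.80, 4.81 and 4.83 at 4 h, by 0.92 ± 0.04 (adjusted p = 1.23e-08), and was lower by 0.31 ± 0.04 at 24 h (adjusted p = 0.000118). Of the calcium-binding Kcnip subunits, Kcnip1 and Kcnip2 rose at 4 h, by 0.18 ± 0.05 and 0.24 ± 0.05. By the probe used, Kcnip3 rose at 24 h by 0.35 ± 0.05 and did not pass at 4 h. By its other probe it rose by 0.19 ± 0.04 at 24 h (adjusted p = 0.00365) and fell at 4 h, as given above.

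Kcnq1ot1, a long non-coding RNA antisense to Kcnq1 and no channel, rose at 4 h by 0.89 ± 0.20 (adjusted p = 0.0027), from -3.36, -3.50 and -3.63 to -2.70, -2.68 and -2.42. It was at 0.17 (adjusted p = 0.292) with the mean of its probes, of which the other, dim at 4 h, read lower by 0.55 ± 0.25 (adjusted p = 0.0764), and at 0.32 (adjusted p = 0.0892) with normexp. Endothelial markers had a summed level of 28.2 to 29.1 in saline 4 h and 4.06 to 4.46 in LPS 4 h, with 1 of 5 higher and 4 lower. At 24 h their level was 13 to 14.4 after saline and 18.6 to 21.2 after LPS, with 5 of 5 higher. All 4 markers of the anterior pituitary were lower at 4 h, where Cga and Gh had no LPS array well above background. No Kcn member is on either list, and their part was not tested.

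The second comparison asks what differed 24 h after LPS. There 18 members were called higher and 20 lower, which is 23.7% and 26.3%, against 23.3% and 22.8% of all genes (46.1% in all, and 50.0% of members). The median was 0.03 for members and 0.00 for all genes, and 0 members changed 2-fold or more, against 5 higher and 6 lower at 4 h. Median scaling gave 10 higher and 23 lower, where 15.7% of all genes were higher and 35.3% lower. Arrays stood apart in 24 members with LPS higher and in 20 with LPS lower, against 28.4% and 26.6% of all genes.

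The 2 responses rest on separate arrays. In 12 members LPS was called higher at 4 h and lower at 24 h (15.8% of members, 8.63% of all genes): Kcna4, Kcna5, Kcnab1, Kcnab2, Kcnab3, Kcnc1, Kcnc2, Kcnk2, Kcnma1, Kcnn2, Kcnq5 and Kcnt1. In 8 it was lower at 4 h and higher at 24 h (10.5% of members, 11.4% of all genes): Kcne1l, Kcne2, Kcnf1, Kcnj4, Kcnj16, Kcnq1, Kcns1 and Kcns2. Another 4 were higher at both times (Kcnc4, Kcnj3, Kcnj11, Kcnk12, 5.26% against 7.44%), 4 lower at both (Kcna6, Kcnmb4, Kcnt2, Kcnu1, 5.26% against 10.2%), and 15 were called at neither (19.7% against 17.8%).

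Tested directly, the response at 24 h was above that at 4 h in 26 members and below it in 27, against 42.5% and 26.4% of all genes (69% in all). Among called members, the largest positive differences were in Kcnf1 (1.73 ± 0.11), Kcne2 (1.68 ± 0.07), Kcns2 (1.65 ± 0.05), Kcne1l (1.43 ± 0.06) and Kcnj4 (1.35 ± 0.06), besides Kcnq3, which was near background. By the other probe of Kcnj4 the difference was -0.09 ± 0.11 (adjusted p = 0.509). Among the largest negative ones were those of Kcnk2 (-2.00 ± 0.15), Kcnq5 (-1.57 ± 0.08), Kcnc2 (-1.29 ± 0.08) and Kcnh2 (-1.16 ± 0.07). Their adjusted p values ran from 5.12e-09 for Kcns2 to 1.14e-06 for Kcnk2.

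A pair of the members called opposite ways is shown with the 250 bases before their start site, one of each order. Among the members of its order with 1 entry in the RefSeq promoter table (GRCm38.p6) and no disagreeing probes, each had the largest difference between times. CG dinucleotides are in capitals. Kcna5 lies at chr6:126535556-126535805 on the minus strand and holds 3 of them, and Kcnf1 at chr12:17176889-17177138, also on the minus strand, holds 1.
Kcna5: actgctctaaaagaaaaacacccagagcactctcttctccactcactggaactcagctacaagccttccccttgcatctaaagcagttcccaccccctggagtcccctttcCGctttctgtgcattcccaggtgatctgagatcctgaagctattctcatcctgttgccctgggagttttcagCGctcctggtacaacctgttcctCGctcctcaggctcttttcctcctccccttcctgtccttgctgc
Kcnf1: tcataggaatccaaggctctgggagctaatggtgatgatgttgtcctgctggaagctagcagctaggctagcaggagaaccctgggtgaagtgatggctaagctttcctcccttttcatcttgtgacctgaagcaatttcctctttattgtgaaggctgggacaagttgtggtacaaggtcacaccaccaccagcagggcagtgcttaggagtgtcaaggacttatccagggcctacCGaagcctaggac

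Of the 76 tested members, 55 have an entry in that table, with 80 windows of 250 bases. The median number of CG dinucleotides was 8 in the members' windows and 6 in all 32841. The AP-1 motif TGANTCA was in 5.0% of the members' windows and in 6.75% of all, the cAMP half-site TGACG in 13.8% and 17.8%, and the kappaB motif in 8.75% and 7.25%, counting both strands. For the 9 members with an entry that were higher at 4 h and lower at 24 h, these shares were 5.0%, 10.0% and 10.0% of 20 windows. For the 6 of the opposite order they were 0.0%, 20.0% and 0.0% of 10 windows. A match of these letters is a description and no binding site.

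The saline groups of the 2 times differed in most members: 37 were higher and 22 lower at 24 h, against 32.3% and 48.5% of all genes (80.8% in all). Among the largest rises were those of Kcnh1 (2.53 ± 0.08), Kcnc1 (2.33 ± 0.06), Kcnip2 (2.31 ± 0.05), Kcnh2 (1.92 ± 0.05) and Kcnk12 (1.92 ± 0.08). Among called members, the largest falls were in Kcne1l (-2.30 ± 0.04), Kcne4 (-1.99 ± 0.11), Kcnn4 (-1.76 ± 0.56), Kcnk6 (-1.57 ± 0.04), Kcnf1 (-1.52 ± 0.08) and Kcnj4 (-1.44 ± 0.04). Without saline 4 h replicate 2, which read -0.60, Kcnn4 was at -0.91 (adjusted p = 0.000449). The other Kcnc1 probes, well above background on all 12 arrays, gave smaller rises, of 0.32 ± 0.04 and 0.29 ± 0.05 (adjusted p = 6.85e-05 and 0.000199). By its other probe Kcnj4 rose, by 2.06 ± 0.08 (adjusted p = 3.55e-09). Time after saline and scan day cannot be told apart here. In 24 members all 3 saline 4 h arrays lay below the 9 other arrays, and in 12 above them, against 18.9% and 35.1% of all genes. The highest group mean was that of saline 4 h in 22 members (28.9%, and 42.7% of all genes), LPS 4 h in 10 (13.2% and 17.7%), saline 24 h in 23 (30.3% and 19.2%) and LPS 24 h in 21 (27.6% and 20.5%). The lowest was that of saline 4 h in 32 members (42.1% and 27.1%), LPS 4 h in 18 (23.7% and 22.2%), saline 24 h in 16 (21.1% and 25.6%) and LPS 24 h in 10 (13.2% and 25.1%).

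For this reason LPS 4 h is given against both saline groups. Against saline 24 h, 17 members were higher and 39 lower, where 41.5% and 31.6% of all genes were. The 2 sets of values share the LPS arrays. Of the 30 members called higher against saline 4 h, 5 were also higher against saline 24 h, 19 were lower and 6 were not called (16.7%, 63.3% and 20.0%, against 41.8%, 37.7% and 20.5% of all genes called higher). Of the 21 called lower, 11 were also lower, 3 were higher and 7 were not called (52.4%, 14.3% and 33.3%, against 26.3%, 51.1% and 22.6% of all genes called lower). Kcnq5, 0.82 above saline 4 h, was -0.94 against saline 24 h, and Kcnh2 went from 1.24 to -0.67. Kcnf1 went from -1.44 to 0.08 and Kcns2 from -1.04 to 0.02. By contrast, Kcne2 was -0.94, Kcnj9 -0.34 and Kcnc2 0.21 against saline 24 h, on the same side as against saline 4 h.

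**Figure D3:**
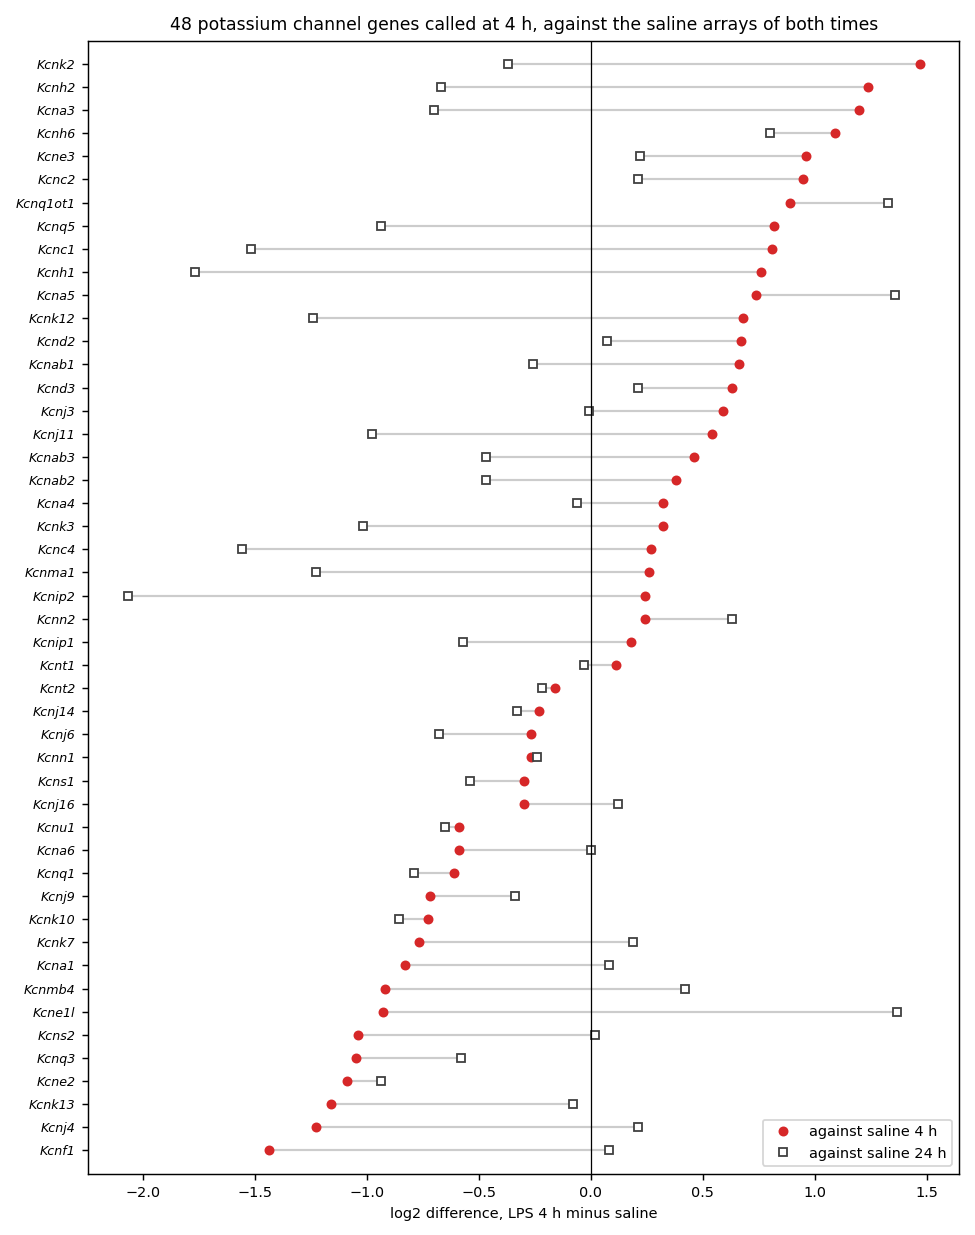
Log2 difference of the LPS 4 h arrays (x axis) from the saline arrays of 4 h (filled circles) and of 24 h (open squares) for 48 members called at 4 h (rows, ordered by the first value). Both points of a row share the 3 LPS arrays, and saline 24 h was scanned on another day. Most squares of the upper rows lie left of 0: of the 27 shown that were called higher against saline 4 h, 16 were called lower against saline 24 h.

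For 24 members the arrays carry several tested probes. At 4 h, 5 of them (Kcnc1, Kcnd2, Kcnj3, Kcnj4 and Kcnk3) had probes called in opposite directions, where 17.2% of all genes with several probes did. At 24 h 0 of 24 did, against 3.1%. The first 30 of the 60 bases of the probes of Kcnj4 and Kcnd2 are shown because the direction of these genes at 4 h depends on which is read, the probe used above standing first.
Kcnj4, used: gcatgactgtggtctgtgctcttgattctc
Kcnj4, other: cttggtgtcacccatcatcatagtgcatga
Kcnd2, used: aaatatactgtgttggtggtgaatgacttt
Kcnd2, other: gatcagatgtgtggagagaactccactatc

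The other probe of Kcnj4 (mm9, chromosome 15, 79315390 to 79315449) read -1.81, -1.66 and -1.75 in saline 4 h and -1.41, -1.31 and -1.43 in LPS 4 h, a rise of 0.36 ± 0.08 (adjusted p = 0.00232), beside the fall of 1.23 by the first. The Kcnj4 probes also opposed each other between the saline groups, at -1.44 and 2.06. The Kcnj4 probe used is annotated at 79314133 to 79314157, a span shorter than its 60 bases. The other probe of Kcnd2 fell by 0.23 ± 0.06 (adjusted p = 0.00688) where the first rose by 0.67. That of Kcnj3 fell by 0.35 ± 0.05 and that of Kcnk3 by 0.21 ± 0.08. Of the 3 Kcnc1 probes, one more rose, by 0.37 ± 0.04, and one fell by 0.34 ± 0.05. All of these probes were well above background on all 12 arrays.

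**Figure D4:**
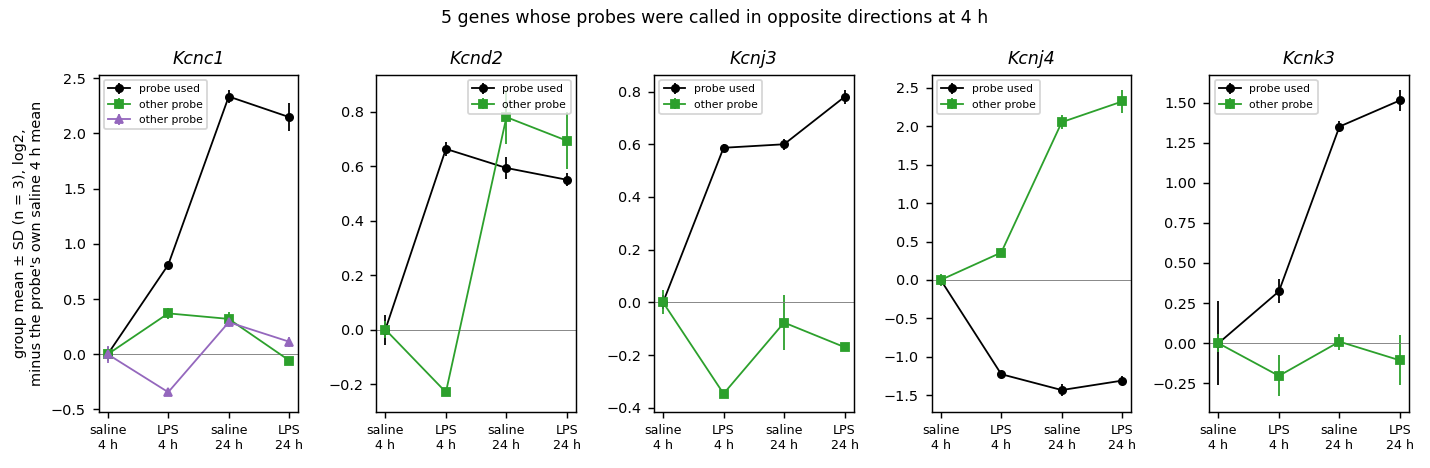
Group means of each probe (± SD, n = 3, log2 units) minus the probe's own mean in saline 4 h (y axis) by group (x axis) for the 5 members whose probes were called in opposite directions at 4 h. Black circles are the probe used for the gene and coloured symbols its other probes. For Kcnj4, LPS 4 h stands at -1.23 by one probe and 0.36 by the other.

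Proteins that bind or anchor potassium channels were taken from a list of 33 genes, 31 of them tested. At 4 h 11 were higher and 17 lower (29.3% and 44.5% of all genes), and at 24 h 6 higher and 12 lower (23.3% and 22.8%). Ank3, which holds Kv7 channels at the initial segment, rose by 1.38 ± 0.03 at 4 h and fell by 0.28 ± 0.03 at 24 h. Dlg4 and Cntnap2, which cluster Kv1 channels, rose by 1.38 ± 0.04 and 1.30 ± 0.05 and then fell by 0.47 ± 0.04 and 0.53 ± 0.05. Vapa, a partner of Kv2, rose by 1.40 ± 0.05 at 4 h. Gnb5, a G protein beta subunit, fell by 0.68 ± 0.02 and 0.27 ± 0.02. Akap5 fell by 0.51 ± 0.04 at 24 h, and Atp1b2, a sodium pump subunit of glia, rose by 0.76 ± 0.04 and 0.56 ± 0.04.

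Calls were also made under 5 other settings (normexp, median scaling, the 75th percentile over probes detected on all arrays, quantile normalization and the deposited matrix). Of the calls above, 12 of the 30 rises and 9 of the 21 falls at 4 h passed each time, and 6 of the 18 rises and 8 of the 20 falls at 24 h. Those that did so at 4 h are Kcna4, Kcnab1, Kcnab2, Kcnab3, Kcnc1, Kcnc2, Kcnd2, Kcnh1, Kcnh2, Kcnj3, Kcnj11 and Kcnq5 (higher) and Kcna1, Kcne1l, Kcne2, Kcnf1, Kcnj4, Kcnj9, Kcnk13, Kcnmb4 and Kcns2 (lower). At 24 h they are Kcnc4, Kcne1l, Kcne2, Kcnip3, Kcnk6 and Kcns2 (higher) and Kcna4, Kcnab1, Kcnab2, Kcnc2, Kcnmb4, Kcnq5, Kcns3 and Kcnt1 (lower). These settings kept the probe used for each gene, so the choice of probe was not varied in them. Of the genes listed for 4 h, Kcnc1, Kcnd2, Kcnj3 and Kcnj4 had another probe called in the opposite direction at 4 h. Normexp also lowered counts by role. At 4 h it left 1 rise of Kv1 channels (3 before), 2 falls of inward rectifiers (5), 0 rises and 1 fall of 2-pore channels (3 and 3), 1 rise and 1 fall of calcium- and sodium-activated channels (3 and 3) and 3 rises of auxiliary subunits (6). At 24 h it left 1 fall of Kv1 channels (3), 1 rise of silent subunits (4), 1 rise and 0 falls of 2-pore channels (3 and 2), 0 falls of EAG, ERG and ELK channels (2) and 1 fall of calcium- and sodium-activated channels (5). With normexp, Kcnk2 was at 0.35 (adjusted p = 0.0542) at 4 h, and at 24 h Kcng4 was at 0.43 (adjusted p = 0.0679) and Kcnk2 at -0.35 (adjusted p = 0.109).

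Leaving out 1 array ended the call of 5 members at 4 h. Among these the highest adjusted p was 0.117 for Kcnj6, 0.0838 for Kcnk3 and 0.135 for Kcnt2, each without saline 4 h replicate 3, and 0.112 for Kcnt1 without LPS 4 h replicate 2. At 24 h it ended that of 13, given below with the array that took the adjusted p highest: Kcnab3, Kcnc1, Kcnh3, Kcnh5, Kcnj4, Kcnj11, Kcnj15, Kcnj16, Kcnk1, Kcnk12, Kcnma1, Kcnt2 and Kcnu1. Kcnj4, Kcnj11, Kcnj16 and Kcnab3 lost it without saline 24 h replicate 2, with adjusted p of 0.131, 0.124, 0.12 and 0.0669. Kcnt2 and Kcnk1 lost it without saline replicate 1 of 24 h (0.0723 and 0.0787), and Kcnc1 and Kcnj15 without its replicate 3 (0.0885 and 0.0913). Kcnk12 and Kcnma1 lost it without LPS replicate 1 of 24 h (0.112 and 0.123), and Kcnh3, Kcnh5 and Kcnu1 without its replicate 2 (0.084, 0.118 and 0.0941). In the other direction, leaving out 1 array brought 9 members under the threshold at 4 h, among them Kcnd1, Kcnh4, Kcnh8 and Kcnn3, which were near background, besides Kcnb2 and Kcnn4. Kcnj12, Kcnk1 and Kcnk6 were the rest, at 0.0414, 0.0378 and 0.0231. At 24 h it did so for Kcnj2, Kcnk3 and Kcnn4. No member changed direction when 1 array was left out while called with all 12.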

How the data were processed

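Per the labels, Cy3-labelled RNA of whole hippocampus was read on one-colour Agilent arrays. The deposited scanner files give an intensity per spot that the authors' Agilent Feature Extraction 10.7.3.1 had background-subtracted, per the file headers; the submitters' processing notes name version 9.1. The deposited series matrix holds log2 values, recomputed here to within 5e-14 as normexp (offset 50) and quantile normalization.

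Here log2 of the processed intensity of 41174 transcript probes was taken relative to each array's 75th percentile, without 12 outlier spots. Probes were kept where 1 group or more had all 3 arrays well above background (27681), Kcn genes were named by the array files (the newer of 2 annotation versions), other genes through the RefSeq table, and the brightest probe stood for a gene. A model of 4 group means over 12 arrays was fitted with limma 3.58.1 in R 4.3.3 and tested on simulated data. A fold is given as "at least" where 1 group was not well above background, computed against, per array, the dimmest probe signal that passed as well above background, or the gene's own where higher. No fold is given where that bound is under 1 or both groups are dim. The 3 arrays per group limit the precision.

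Members and lists were chosen with earlier results of these data known. Per LPS comparison, values of each array are given for the 8 largest rises and falls among called members whose arrays stood apart and for a set of channels always named, then up to 4 called members per role and 6 partners by adjusted p. For the other comparisons the 6 largest of each sign are named. Alternatives were other settings for background, scaling and filter, the deposited matrix, probe rule, gene names, arrays in the fit, replicate and slide blocks, spread, threshold, each array left out and the other saline group. Samples with the same replicate number did not deviate together at 4 h, at r from -0.16 to 0.19. At 24 h, where the same number is also the same slide, r was 0.07 to 0.1 and below 0 for all other pairs. Each slide held 1 saline and 1 LPS array of 1 time. Arrays of 1 slide had r from -0.06 to 0.27 at 4 h. Probe positions are on mm9. Some genes stay in the counts but are not reported here.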

Additional observations from a re-analysis of the deposited data

Results flagged for a closer look

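For 11 members the response to LPS differed between 24 h and 4 h by amounts among the largest in a direct test of that difference (response at 24 h minus response at 4 h, limma, log2 units). It was positive for Kcnf1 (1.73, adjusted p = 3.45e-07), Kcne2 (1.68, adjusted p = 2.7e-08), Kcns2 (1.65, adjusted p = 5.12e-09), Kcne1l (1.43, adjusted p = 3.38e-08), Kcnj4 (1.35, adjusted p = 4.32e-08) and Kcnq3 (1.27, adjusted p = 0.0137). It was negative for Kcnk2 (-2.00, adjusted p = 1.14e-06), Kcnq5 (-1.57, adjusted p = 1.1e-07), Kcna3 (-1.37, adjusted p = 0.00104), Kcnc2 (-1.29, adjusted p = 3.22e-07) and Kcnh2 (-1.16, adjusted p = 4.24e-07). The values of Kcna3 and Kcnq3 rest on saline 4 h arrays that were not well above background, so they are fitted values and no measured folds. The value of Kcnj4 rests on 1 of 2 probes that disagree: by the other, well above background on all 12 arrays, the difference was -0.09 (adjusted p = 0.509). The time after injection and the scan day cannot be told apart in this difference.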

How the results depend on the processing

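The depth of these results is set by signal over background: 18 of 76 members were not well above background on 1 or more arrays at 4 h and 5 at 24 h. With normexp background correction, members called higher and lower numbered 14 and 11 at 4 h, 6 and 8 at 24 h, 14 and 15 for the difference between times, and 24 and 37 for the saline groups. With normexp the shares of all genes were 17.5% and 32.3% at 4 h and 10.1% and 8.68% at 24 h. They were 27.2% and 15.7% for the difference, and 19.8% and 60.1% for the saline groups. Median scaling gave 10 higher at 24 h, where 15.7% of all genes were higher. An adjusted p under 0.01 gave 11 higher and 13 lower at 24 h, where 17.7% of all genes were higher and 15.4% lower. Against saline 24 h, LPS 4 h had 17 higher and 39 lower, where 41.5% of all genes were higher and 31.6% lower. Leaving out 1 array gave 27 to 31 higher and 19 to 22 lower at 4 h, 13 to 18 and 15 to 20 at 24 h, 23 to 28 and 26 to 28 for the difference, and 35 to 37 and 21 to 24 for the saline groups. Of all genes, 27.7% to 29.5% were then higher and 42.2% to 45.0% lower at 4 h. At 24 h these shares were 20.8% to 23.8% and 19.3% to 22.7%. They were 41.0% to 42.6% and 25.4% to 26.5% for the difference, and 30.6% to 32.5% and 47.1% to 48.8% for the saline groups. With the replicate number as a block, 29 were higher and 20 lower at 4 h, 16 and 17 at 24 h, 27 and 26 for the difference, and 35 and 23 for the saline groups; the numbers do not pair the samples. With the slide as a block, which at 24 h held the same pairs of arrays as the numbers, 29 were higher and 22 lower at 4 h, 14 and 16 at 24 h, 26 and 28 for the difference, and 36 and 22 for the saline groups. With the number as a block, the shares of all genes were 28.9% and 44.1% at 4 h and 22.5% and 21.4% at 24 h. They were 42.1% and 26.0% for the difference, and 32.0% and 48.1% for the saline groups. With the slide these were, in the same order, 29.3% and 44.7%, 23.2% and 22.1%, 42.9% and 26.4%, and 32.2% and 48.5%.

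Called values changed sign in these cases, and the cause was not tested. With normexp at 4 h, Kcna3 was -0.14 and Kcnh6 -0.014, and the difference between times of Kcna3 was 0.054. With median scaling, Kcnt1 was -0.059 at 4 h, and Kcnj11 -0.01 at 24 h. With the mean of its probes, Kcnj4 was 0.31 between the saline groups. Against saline 24 h, members called higher at 4 h were at -0.70 (Kcna3), -0.059 (Kcna4), -0.26 (Kcnab1), -0.47 (Kcnab2), -0.47 (Kcnab3), -1.52 (Kcnc1), -1.56 (Kcnc4), -1.77 (Kcnh1), -0.67 (Kcnh2), -0.57 (Kcnip1), -2.07 (Kcnip2), -0.98 (Kcnj11), -0.011 (Kcnj3), -1.24 (Kcnk12), -0.37 (Kcnk2), -1.02 (Kcnk3), -1.23 (Kcnma1), -0.94 (Kcnq5) and -0.034 (Kcnt1). Members called lower were at 0.076 (Kcna1), 1.37 (Kcne1l), 0.079 (Kcnf1), 0.12 (Kcnj16), 0.21 (Kcnj4), 0.19 (Kcnk7), 0.42 (Kcnmb4) and 0.024 (Kcns2).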
